A study of Mus musculus with 28 samples.

Results

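RNA-seq of mice operated on at postnatal day 1 was used to set the acute effect of myocardial infarction (MI), 3 days after surgery, against its late effect, 21 days after surgery. The libraries were taken by their treatment and follow-up labels, which gave 14 of the 28 libraries of the study. They were 4 from 1d-SHAM + 3, 4 from 1d-MI + 3, 3 from 1d-SHAM + 21 and 3 from 1d-MI + 21. All mice were of the outbred stock Hsd:ICR(CD-1), the methods describe them as male, and the labels give no transgene, deletion or drug for any group. In 1d-MI + 3 and 1d-MI + 21 the left anterior descending (LAD) coronary artery was ligated on day 1, and 1d-SHAM + 3 and 1d-SHAM + 21 had a sham operation on the same day. The paper's discussion places its samples in the left ventricular remote zone, away from the infarct. Its results place the RNA samples of 21 days distal to the injury and give no site for those of 3 days. Whether infarct tissue entered a library was not tested. The other 14 libraries, from mice operated on at day 7, entered the fits and 1 comparison at the end.

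A mouse heart injured on the first day of life can replace lost muscle, an ability that fades within days of birth. Damaged tissue releases alarmins, neutrophils and monocytes enter and macrophages clear debris, while fibroblasts lay down matrix and the remaining muscle carries a higher load. Loaded ventricular muscle is known to re-express fetal genes such as that of atrial natriuretic peptide, and in the same weeks of life the heart moves from glycolysis towards the oxidation of fatty acids.

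The libraries held 33077962 to 48612405 counts at 3 days and 40514177 to 168550985 at 21 days. The kits differed between the follow-ups (TruSeq stranded total RNA at 3 days, ScriptSeqV2 at 21 days), so an MI effect was formed within its own follow-up, and a level in CPM (counts scaled to the size of the library) at 3 days cannot be set against one at 21 days. The 11 cardiomyocyte markers summed to between 22480 and 39600 CPM in the libraries at 3 days and between 29740 and 46070 CPM at 21 days, so the tissue carried its defining markers throughout. Ribosomal RNA loci took 0.0334 to 0.1398% of the counts at 3 days and 0.467 to 69.8% at 21 days. No animal name prefix held both an MI and a sham library, since the shams at 3 days carried the prefixes 1078 and 1103 and the MI libraries 1059 and 1086, with 1 prefix for each group at 21 days. Surgery and whatever a prefix stands for therefore cannot be told apart. In 1d-SHAM + 3 replicate 3 the female transcript Xist stood at 94.3 CPM and the Y-linked Ddx3y at 0.133 CPM, against 0.595 to 1.34 and 78.2 to 104 CPM in the 1d-MI + 3 libraries, which goes against its description as male. Counts over genes of smell, taste and pheromone receptors, which the heart hardly uses, were 0.638 to 41.4 CPM in 1d-SHAM + 3, 18.1 to 132 in 1d-MI + 3, 33.8 to 124 in 1d-SHAM + 21 and 3.18 to 73.8 in 1d-MI + 21. Within 1d-SHAM + 3 they were 41.4 and 37.1 CPM for prefix 1078 and 0.638 and 0.851 CPM for prefix 1103. Those libraries had 28454 and 30025 genes with a count for prefix 1078 and 20612 and 20069 for prefix 1103. In 1d-MI + 3 this number was 27324 to 35932. Subtracting such background in proportion to gene length left 1779 genes called at 3 days where 1722 were called without it. Its part in the unlike numbers of calls by sham prefix, given below, was not tested. The labels number the libraries within a group without saying that each is 1 animal, so the p-values measure the spread between these libraries.

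At 3 days 834 of 20345 genes tested were higher in 1d-MI + 3 than in 1d-SHAM + 3 (4.1%) and 888 were lower (4.36%), at an adjusted p under 0.05 by edgeR's quasi-likelihood test. At 21 days 2 of 24646 genes were higher and 2 lower in 1d-MI + 21 (0.0162% together), while 3599 had an unadjusted p under 0.05, 2114 of them higher (8.58%) and 1485 lower (6.03%). The difference between the effects, tested in 1 fit of all 28 libraries, was called for 1893 of 19765 genes, with the effect higher at 21 days for 1349 (6.83%) and lower for 544 (2.75%). The spread that the fits used was shared with the day-7 groups. As a biological coefficient of variation it was 0.331 at 3 days and 0.567 at 21 days. In the day-1 libraries alone it was 0.389 and 0.403, so sharing made it smaller at 3 days and larger at 21 days. With the day-1 libraries alone, 118 genes were higher and 43 lower at 3 days, 158 of these 161 being called in the shared fit too, and 443 were higher and 157 lower at 21 days, only 4 of them shared. An adjusted p from that fit of 8 or 6 libraries is given, with the word alone, for the named genes that it put on the other side of the threshold and for some others.

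Each gene was then placed in a class. A gene called at both follow-ups was persistent if its direction held and reversed if it turned, and a gene called only at 21 days was late. A gene called at 3 days but not at 21 days was resolved where the difference between the effects was called and the effect at 21 days was the smaller one, overshooting where the late effect was at least as large, and undetermined where the difference was not called. Of the genes tested at both follow-ups none was persistent, none was reversed, 4 were late, 379 were resolved (268 higher and 111 lower at 3 days), 221 were overshooting (19 higher, 202 lower) and 1104 were undetermined (529 higher, 575 lower). With the day-1 libraries alone 4 genes were persistent (Adamtsl2, Gm43256, mt-Tt and Ahnak2), 5 were reversed (Ccn3, Mmp12, Ostf1, Gpx3 and Tsc22d3), 572 were late and 97 were resolved. In all, 75 genes were resolved in both fits, 61 of them higher at 3 days. The undetermined and resolved classes were thus the largest in the shared fit, and the late class was the largest with the day-1 libraries alone.

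**Figure D1:**
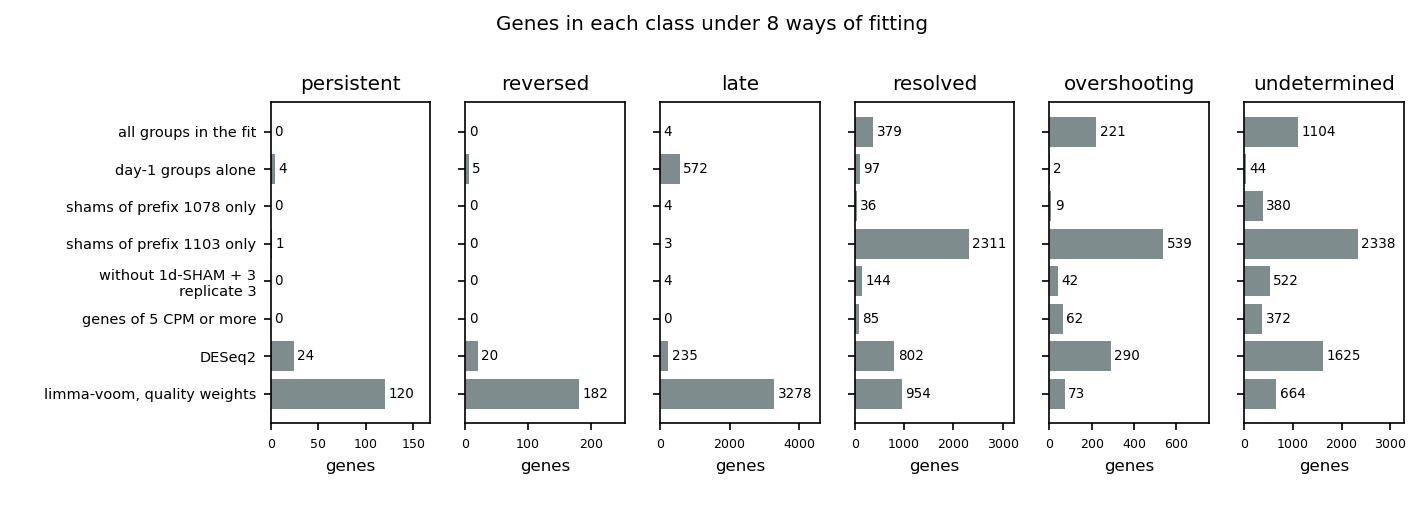
Number of genes (horizontal axes, linear and separate for each panel) in each of 6 classes, as bars labelled with their counts, under 8 ways of fitting. Resolved genes number 379 with all groups in the fit, 97 with the day-1 groups alone, 36 with the shams of prefix 1078 only and 2311 with those of prefix 1103 only, while late genes go from 4 to 572 with the day-1 groups alone.

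The number of acute calls moved with single libraries. Left out in turn, 1d-SHAM + 3 replicate 3 gave 718 genes (385 higher, 333 lower), 1d-SHAM + 3 replicate 4 gave 765, and 1d-MI + 3 replicates 1, 2 and 4 gave 659, 627 and 722. The count rose to 3167 without 1d-SHAM + 3 replicate 2 and to 3319 without 1d-MI + 3 replicate 3. With the shams of prefix 1078 only it was 428, and with those of prefix 1103 only it was 5599. Among the 1704 genes called at 3 days and tested at both follow-ups, 42.1% kept the sign of their effect at 21 days, against 42.7% of all 19765 genes, so the share among the called genes was near that of all genes. Across all genes the effects had a correlation of -0.35, and across the 7801 genes of 5 CPM or more at both follow-ups it was -0.03, a description over genes of the same libraries. The median effect of genes of 5 CPM or more was -0.17 at 3 days and 0.26 at 21 days on the log2 scale, and that of the 11964 other genes was 0.45 and -0.20. List medians are to be read against these. Of the 7801 genes of 5 CPM or more, 136 rose and 730 fell at 3 days in the shared fit. At 21 days 1314 of them were higher and 283 lower at an unadjusted p under 0.05. The difference was called upwards for 1127 of them and downwards for 63. Shares in lists of abundant genes are to be read against these counts too.

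**Figure D2:**
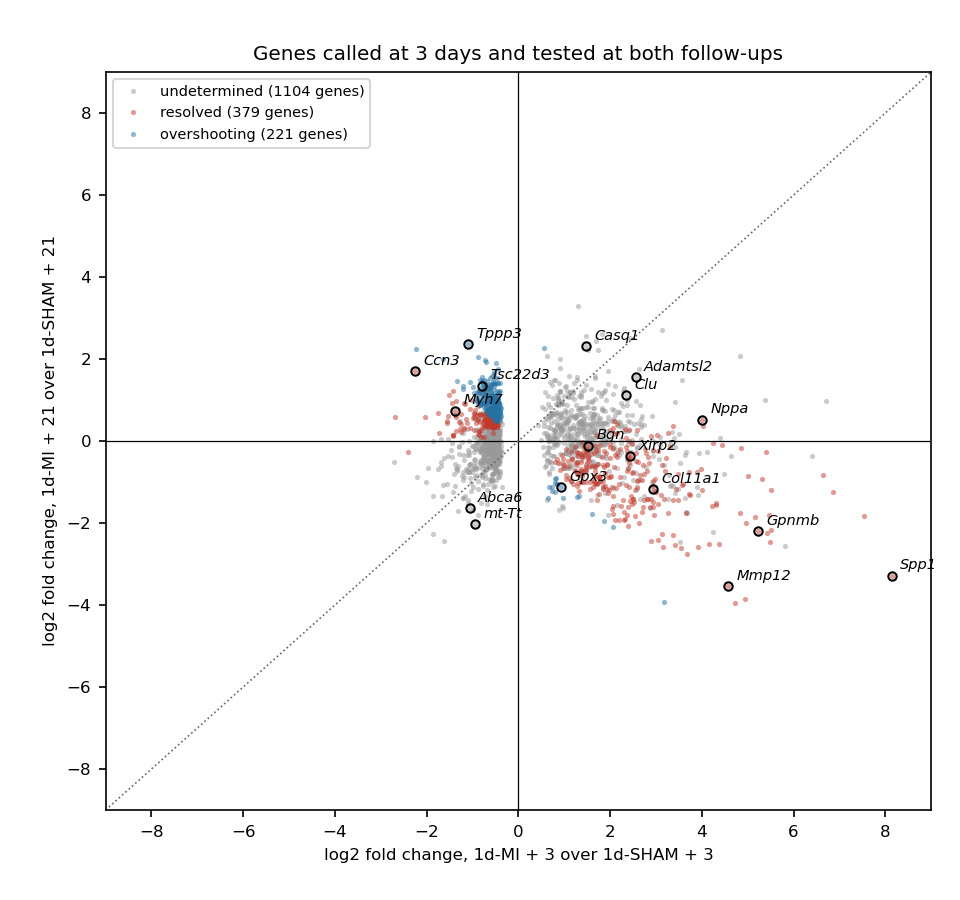
Log2 fold change of MI over sham at 3 days (horizontal) and at 21 days (vertical) for genes called at 3 days and tested at both follow-ups, coloured by class, with named genes ringed and the dotted line marking equal effects. Spp1 at 8.14 and Gpnmb at 5.23 on the horizontal axis lie below 0 on the vertical axis, while Adamtsl2 at 2.56 lies above it at 1.56.

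A stress peptide of muscle was among the genes with large acute effects. Nppa, which encodes atrial natriuretic peptide (ENSMUSG00000041616, GRCm38 chromosome 4, 148000722 to 148002079), stood at 306, 263, 198 and 29.4 CPM in the 4 1d-SHAM + 3 libraries and at 3752, 2238, 2678 and 4155 CPM in the 4 1d-MI + 3 libraries. Every MI library lay above every sham, by 4.01 ± 0.59 on the log2 scale (± SE, adjusted p = 0.00277, and 0.0213 alone). At 21 days Nppa stood at 689, 119 and 965 CPM in 1d-SHAM + 21 and at 392.4, 948 and 1206 CPM in 1d-MI + 21. These groups overlapped, with a log2 fold change of 0.52 ± 0.83 (adjusted p = 0.767). The effect at 21 days minus that at 3 days was -3.40 ± 1.04 (adjusted p = 0.0418). This difference was lost without each of 1d-SHAM + 3 replicates 3 and 4, 1d-MI + 3 replicates 1, 2 and 4, 1d-SHAM + 21 replicates 2 and 5 and 1d-MI + 21 replicates 1 and 2 (largest adjusted p = 0.133).

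Xirp2, which encodes a protein of the intercalated disc that binds actin (ENSMUSG00000027022, chromosome 2, 67446002 to 67526614), followed the same course with less spread. It stood at 230.1, 183, 185 and 70.1 CPM in the shams and at 1038, 512, 1030.0 and 1041 CPM after MI at 3 days, a log2 fold change of 2.44 ± 0.30 (adjusted p = 2.81e-04) that held with every library left out. At 21 days the levels were 214, 144 and 258 CPM in 1d-SHAM + 21 and 148, 128 and 199 CPM in 1d-MI + 21, and the groups overlapped. The difference between follow-ups of -2.74 ± 0.54 (adjusted p = 0.00731) also held with every library left out. In the list of wall stress and fetal genes 3 of 24 members rose and 2 fell at 3 days, against 4.1% and 4.36% of all genes. A fit of the day-1 libraries alone called 2 higher and none lower. The list median was 0.37 at 3 days and 0.61 at 21 days. Myh7, the fetal and slow myosin heavy chain, was among those that fell at 3 days. It stood at 416, 678, 918 and 951 CPM in the shams and at 185, 319, 244 and 389 CPM after MI. These groups did not overlap (-1.38 ± 0.24, adjusted p = 0.00300, and 0.0508 alone). At 21 days Myh7 leaned the other way, with 183, 172 and 135 CPM in the shams and 384, 221 and 213 CPM after MI (adjusted p = 0.511). The difference between follow-ups (2.23 ± 0.57, adjusted p = 0.0205) was lost without each of 1d-SHAM + 21 replicates 2 and 5 and 1d-MI + 21 replicates 1 and 2 (largest adjusted p = 0.0998).

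**Figure D3:**
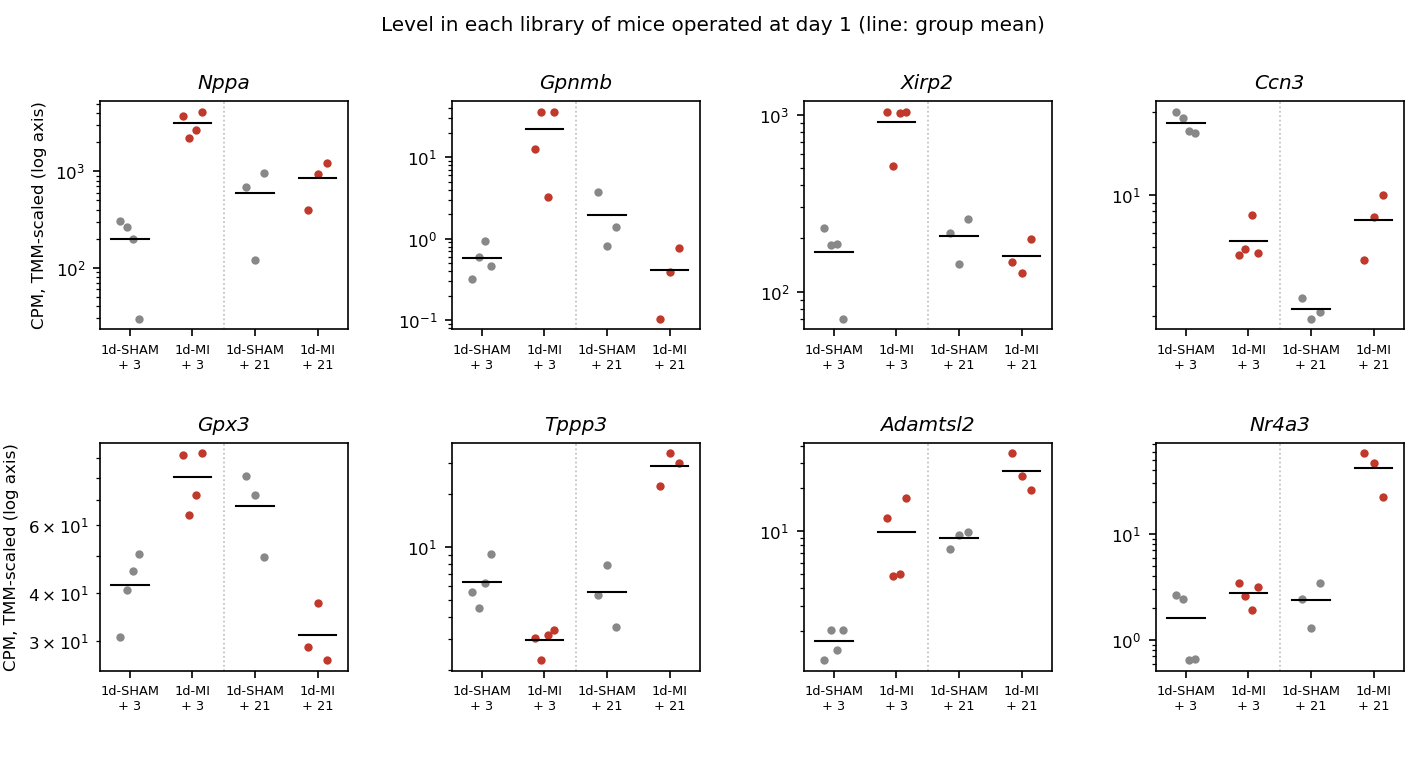
Level of 8 genes in each library (points, TMM-scaled CPM on a log axis) with group means as lines, for shams in grey and MI in red, at 3 days to the left and at 21 days to the right of the dotted line in each panel. Nppa, Gpnmb and Xirp2 separate the groups upwards at 3 days, Ccn3, Gpx3 and Tppp3 separate them in opposite directions at the follow-ups, Adamtsl2 separates them upwards at both, and Nr4a3 separates them at 21 days.

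Genes of phagocytes had large acute effects and no call at 21 days in the shared fit. Gpnmb, a glycoprotein of lipid-laden macrophages (ENSMUSG00000029816, chromosome 6, 49036546 to 49070929), stood at 0.319, 0.592, 0.930 and 0.466 CPM in 1d-SHAM + 3 and at 12.5, 36.0, 3.23 and 35.7 CPM in 1d-MI + 3. The groups did not overlap (5.23 ± 0.77, adjusted p = 0.00300). At 21 days the order had turned, at 3.75, 0.806 and 1.38 CPM in 1d-SHAM + 21 and 0.104, 0.393 and 0.761 CPM in 1d-MI + 21. They again did not overlap (adjusted p = 0.468). Spp1, which encodes the secreted matrix protein osteopontin, stood at 0.776, 0.381, 1.51 and 0.133 CPM in the shams and at 38.3, 364, 27.5 and 392.2 CPM after MI at 3 days. No libraries of the groups overlapped (8.14 ± 1.20, adjusted p = 0.00345, and 0.0541 alone). Among the MI libraries replicates 2 and 4 were the high ones, and at 21 days the 1d-MI + 21 libraries held counts of 0, 0 and 30. Mmp12, the elastase of macrophages, rose by 4.57 ± 0.77 at 3 days (adjusted p = 0.00531), from 0.299, 0.254, 0.487 and 0.466 CPM to 3.96, 13.5, 1.67 and 16.2 CPM. At 21 days its shams were at 1.82, 1.01 and 3.22 CPM and its MI libraries at 0.104, 0.262 and 0.171 CPM, below every sham, which was a call with the day-1 libraries alone (adjusted p = 0.0240) and not in the shared fit (0.370). Lgals3, the lectin galectin-3, rose by 4.15 ± 0.81 at 3 days (adjusted p = 0.0114, and 0.0983 alone). The difference between follow-ups was called for all 4 of these genes. It was lost for Gpnmb without each of 1d-MI + 21 replicates 1 and 2 (largest adjusted p = 0.0731). For Spp1 it was lost without each of 1d-SHAM + 21 replicate 5 and 1d-MI + 21 replicate 1 (largest adjusted p = 0.121). The call for Mmp12 was lost without each of 1d-SHAM + 21 replicate 5 and 1d-MI + 21 replicates 1 and 2 (largest adjusted p = 0.0811). The call for Lgals3 was lost without 1d-MI + 21 replicate 1 (adjusted p = 0.0546).

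Several receptors and a lysosomal protease had smaller effects. C3ar1, the receptor of the complement fragment C3a, stood at 3.38, 2.28, 2.39 and 3.86 CPM in the shams and 9.51, 12.2, 5.08 and 17.3 CPM after MI at 3 days. The 2 groups lay apart (1.90 ± 0.28, adjusted p = 0.00136). Its levels at 21 days, 11.1, 7.90 and 20.6 CPM in the shams and 5.89, 8.40 and 8.93 CPM after MI, overlapped, and the difference of -2.53 ± 0.46 (adjusted p = 0.00423) held with every library left out. Trem2, a lipid-sensing receptor of macrophages, rose by 2.04 ± 0.32 (adjusted p = 0.00174) and was at 1.25, 2.02 and 1.63 CPM in 1d-SHAM + 21 against 0.914, 0.523 and 0.772 CPM in 1d-MI + 21. Ctss, the lysosomal protease cathepsin S, rose by 2.14 ± 0.42 (adjusted p = 0.01004), and Il1r1, the receptor of interleukin-1, rose by 1.04 ± 0.16 (adjusted p = 0.00128). In the phagocyte and lysosome list 9 of 20 members rose at 3 days, where 4.1% of all genes did, and none fell. The fit of the day-1 libraries alone called 3. The list had a median of 0.68 at 3 days and 0.08 at 21 days.

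Some chemokines and alarmins rose as well. In the list of chemokines and their receptors 8 of 24 members rose at 3 days, against 4.1% of all genes, and none fell. Only 1 rose with the day-1 libraries alone. The list had a median of 1.80 at 3 days and -0.61 at 21 days. Only 2 of its members reached 5 CPM at both follow-ups, with a median of 1.43 at 3 days in a fit of such genes. Ccl6, a chemokine of myeloid cells, stood at 0.816, 0.613, 0.620 and 0.932 CPM in the shams and at 4.38, 7.01, 1.47 and 9.03 CPM after MI at 3 days. Every MI library lay outside the range of the shams (2.89 ± 0.51, adjusted p = 0.00522). Its groups overlapped at 21 days, at 13.1, 23.2 and 28.6 CPM and 13.6, 26.3 and 30.6 CPM. Ccl7, which draws monocytes, rose from 0.398, 0.486, 0.222 and 0.266 CPM to 1.42, 2.81, 0.596 and 2.07 CPM at 3 days (2.30 ± 0.45, adjusted p = 0.00592, and 0.0613 alone), on counts of 20, 23, 10 and 8 in the shams. At 21 days Ccl7 was below every sham in every MI library, at 1.03, 2.34 and 2.95 CPM in the shams and 0.235, 0.916 and 0.754 CPM after MI (adjusted p = 0.284). The difference was called for both genes, and was lost for Ccl6 without each of 1d-MI + 3 replicate 2, 1d-SHAM + 21 replicate 5 and 1d-MI + 21 replicate 1 (largest adjusted p = 0.0868).

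Of the acute phase and alarmin genes 14 of 26 rose at 3 days, against 4.1% of all genes, and none fell. Of these, 5 were called with the day-1 libraries alone. The list median was 1.45 at 3 days and -0.03 at 21 days. Only 4 of its members reached 5 CPM at both follow-ups, with a median of 0.81 at 3 days in a fit of such genes. S100a8, a calcium-binding alarmin of neutrophils (ENSMUSG00000056054, chromosome 3, 90668978 to 90670035), had the firmest call of the genes named here. Its levels were 2.89, 3.64, 1.95 and 2.53 CPM in 1d-SHAM + 3 and 14.3, 13.8, 12.4 and 11.9 CPM in 1d-MI + 3, a tight and non-overlapping rise of 2.25 ± 0.20 (adjusted p = 4.94e-06, and 4.35e-04 alone). At 21 days it was low in both groups, at 0.262, 0 and 0.975 CPM in the shams and 0.261, 0.654 and 0.317 CPM after MI. The difference of -2.31 ± 0.83 missed the threshold (adjusted p = 0.0695), which leaves S100a8 undetermined. Socs3, the feedback inhibitor of cytokine signalling, was called at 3 days (1.56 ± 0.33, adjusted p = 0.00935, and 0.0853 alone) although its groups overlapped, and leaned higher at 21 days, from 5.07, 7.02 and 3.65 CPM to 7.08, 10.99 and 7.18 CPM (adjusted p = 0.378).

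Other immune lists had fewer calls. The complement list held 4 members that rose and 1 that fell of 18, with medians of 0.93 and -0.36, and MHC class II presentation 2 that rose of 9, with medians of 1.13 and 0.18. With the day-1 libraries alone 1 member of each rose. Of all genes 4.1% rose and 4.36% fell at 3 days in the shared fit. The interferon response had a median of 1.26 at 3 days and of -0.02 at 21 days. Its 1 member called of 22 was near the 4.1% of all genes, and none was called with the day-1 libraries alone. C3, the central complement component, was at 2.67, 2.47, 1.11 and 6.06 CPM in the shams and 9.93, 6.86, 7.36 and 9.39 CPM after MI at 3 days, a difference that was not called (adjusted p = 0.159). At 21 days it stood at 35.1, 29.6 and 49.4 CPM in 1d-SHAM + 21 and at 6.84, 18.5 and 17.6 CPM in 1d-MI + 21, where every MI library lay below every sham (adjusted p = 0.285). C7, a subunit of the membrane attack complex, had few reads at 3 days and leaned lower at 21 days, from 16.2, 17.1 and 24.7 CPM to 6.18, 7.89 and 7.60 CPM (adjusted p = 0.283, and 0.0324 alone).

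Marker genes of the cells concerned moved with these lists. The 15 markers of monocytes and macrophages summed to 41.3 to 55.7 CPM in 1d-SHAM + 3 and to 78.7 to 229 CPM in 1d-MI + 3. Of these markers 6 rose and none fell, against 4.1% and 4.36% of all genes, with a median of 1.46. At 21 days their sums were 176 to 286 CPM in 1d-SHAM + 21 and 223 to 275 CPM in 1d-MI + 21, with a median of -0.60. Sums of the 11 neutrophil markers were 5.01 to 9.39 CPM in 1d-SHAM + 3 and 23.0 to 29.9 CPM in 1d-MI + 3, where 5 rose against 4.1% of all genes. At 21 days the sums of these markers were 2.47 to 5.53 CPM in the shams and 2.36 to 3.38 CPM after MI. Cardiomyocyte markers summed to 36190 to 39600 CPM in 1d-SHAM + 3 and 22480 to 31780 CPM in 1d-MI + 3, and fibroblast markers to 893 to 1116 and 497 to 832 CPM, without overlap in either case. At 21 days both sums stood higher after MI, at 29740 to 35500 against 39350 to 46070 CPM for cardiomyocytes and 984 to 1040 against 1299 to 1456 CPM for fibroblasts. Of 11 cardiomyocyte markers 8 had a positive late effect and 3 a negative one, and of 11 fibroblast markers 6 and 5. Skeletal muscle markers, which include genes that the heart also uses, summed to 783 to 2376 CPM in 1d-SHAM + 21 and 2448 to 3975 CPM in 1d-MI + 21. Of the 13 tested, 7 had a positive and 6 a negative late effect (median 0.14). The part of the cell composition in the gene effects was not tested, and in these bulk samples a change in the number of cells and a change of RNA per cell cannot be told apart.

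Genes of the extracellular matrix rose at 3 days too. Of 38 members of the matrix and fibrosis list 15 rose and 2 fell at 3 days, against 4.1% and 4.36% of all genes. The day-1 libraries alone gave 7 higher and 1 lower. The list median was 0.62 at 3 days and 0.34 at 21 days. Bgn, the proteoglycan biglycan (ENSMUSG00000031375, chromosome X, 73483602 to 73495933), stood at 21.6, 22.5, 24.4 and 21.3 CPM in the shams and at 65.1, 47.1, 48.1 and 98.7 CPM after MI. The groups were fully apart (1.53 ± 0.20, adjusted p = 2.81e-04). At 21 days it was at 167, 212 and 199 CPM in 1d-SHAM + 21 and 169, 204 and 163 CPM in 1d-MI + 21, groups that overlapped with a log2 fold change of -0.11 ± 0.36. Col8a1, a short-chain collagen, rose by 3.31 ± 0.51 at 3 days (adjusted p = 0.00320), from 2.69, 1.67, 1.59 and 0.733 CPM to 10.6, 14.2, 5.68 and 37.4 CPM, and differed between follow-ups by -3.37 ± 0.56 (adjusted p = 0.00239) with every library left out. The levels of Col8a1 at 21 days overlapped, at 20.5, 20.1 and 23.5 CPM in the shams and 21.8, 17.6 and 18.0 CPM after MI. Timp1, an inhibitor of matrix proteases, rose by 2.15 ± 0.37 (adjusted p = 0.00455) and stood at 2.29, 2.18 and 3.36 CPM in 1d-SHAM + 21 and 1.39, 2.09 and 2.51 CPM in 1d-MI + 21. The differences of Bgn and Timp1 were lost without 1d-MI + 21 replicate 1 (adjusted p = 0.0640) and without each of 1d-MI + 3 replicate 4, 1d-SHAM + 21 replicate 5 and 1d-MI + 21 replicate 1 (largest adjusted p = 0.0899) respectively.

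Fibronectin and a fibrillar collagen stayed undetermined. Fn1 stood at 127, 126, 105 and 108 CPM in 1d-SHAM + 3 and at 271, 259.5, 226 and 544 CPM in 1d-MI + 3, without overlap and highest in replicate 4 (1.48 ± 0.21, adjusted p = 6.81e-04). At 21 days its log2 fold change was -0.01 ± 0.54. Col11a1 rose by 2.95 ± 0.42 at 3 days (adjusted p = 0.00237), and its late effect of -1.18 ± 1.47 was too wide for a call of the difference (adjusted p = 0.0852). Cthrc1, a secreted protein of activated fibroblasts, rose by 1.74 ± 0.28 at 3 days (adjusted p = 0.00205). Igfbp3, which binds insulin-like growth factors, rose by 2.05 ± 0.36 (adjusted p = 0.00506), from 13.99, 20.7, 15.8 and 16.9 CPM to 30.8, 61.7, 72.8 and 114 CPM. Both were classed as resolved. The difference was lost for Cthrc1 without each of 1d-SHAM + 3 replicates 1, 2, 3 and 4, 1d-MI + 3 replicates 1, 2 and 4, 1d-SHAM + 21 replicates 2 and 5 and 1d-MI + 21 replicates 1 and 3 (largest adjusted p = 0.135). That of Igfbp3 was lost without each of 1d-SHAM + 3 replicates 1, 3 and 4, 1d-MI + 3 replicate 4, 1d-SHAM + 21 replicate 5 and 1d-MI + 21 replicate 1 (largest adjusted p = 0.107).

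The genes that fell at 3 days and had resolved fell by less. Tppp, a tubulin-binding protein (ENSMUSG00000021573, chromosome 13, 74009407 to 74035753), stood at 24.1, 18.6, 21.2 and 21.4 CPM in the shams and at 10.4, 8.13, 7.76 and 6.36 CPM after MI. The groups did not overlap (-1.38 ± 0.18, adjusted p = 2.81e-04). Late after surgery it was at 7.93, 3.87 and 6.92 CPM in 1d-SHAM + 21 and 10.4, 8.35 and 10.5 CPM in 1d-MI + 21 (adjusted p = 0.392), and the difference of 2.13 ± 0.36 (adjusted p = 0.00249) held with every library left out. C1qtnf9, a secreted relative of adiponectin, fell by 1.52 ± 0.22 on the log2 scale at 3 days (adjusted p = 0.00119), from 28.2, 20.3, 24.1 and 19.9 CPM to 7.21, 4.53, 9.92 and 10.6 CPM. Its late levels were 36.5, 41.3 and 15.9 CPM in the shams and 61.8, 75.2 and 66.5 CPM after MI. No libraries of the groups overlapped (adjusted p = 0.366), and its difference was lost without 1d-SHAM + 21 replicate 5 (adjusted p = 0.0570). Fmo1, a flavin monooxygenase, fell by 1.28 ± 0.18 (adjusted p = 6.32e-04). Tek, the angiopoietin receptor of endothelium, fell by 0.87 ± 0.15 (adjusted p = 0.00277, and 0.0541 alone), while the endothelial marker sums overlapped at 927 to 1059 CPM in 1d-SHAM + 3 and 660 to 1071 CPM in 1d-MI + 3. The difference for Tek was lost without each of 1d-SHAM + 3 replicates 3 and 4, 1d-MI + 3 replicates 1 and 2, 1d-SHAM + 21 replicates 2, 3 and 5 and 1d-MI + 21 replicates 1 and 2 (largest adjusted p = 0.120).

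A small number of genes leaned the same way at both follow-ups. Of the 816 genes that rose at 3 days, 69 were higher at 21 days at an unadjusted p under 0.05 (8.46%) and 61 were lower (7.48%). Among all 10465 genes with a positive effect at 3 days, called or not, these shares were 7.83% and 6.27%. Of the 888 that fell, 54 were lower again (6.08%) and 124 were higher (14%), against 5% and 13.5% of all 9300 genes with a negative effect. The shares of the called genes were thus near those of all genes with the same sign at 3 days. Clu, which encodes the extracellular chaperone clusterin (ENSMUSG00000022037, chromosome 14, 65968483 to 65981547), rose from 13.3, 11.7, 20.9 and 19.9 CPM to 64.4, 93.6, 65.7 and 109.6 CPM at 3 days (2.34 ± 0.24, adjusted p = 4.07e-05) with every library left out. In the late groups it stood at 40.1, 50.4 and 46.1 CPM in 1d-SHAM + 21 and 119.5, 90.1 and 86.9 CPM in 1d-MI + 21. The 2 groups lay apart (1.12 ± 0.36, adjusted p = 0.284, and 0.0551 alone). Adamtsl2, a matrix protein that binds latent TGF-beta binding protein (ENSMUSG00000036040, chromosome 2, 27079379 to 27108981), rose by 2.56 ± 0.37 at 3 days (adjusted p = 0.00151), from 1.23, 2.03, 1.46 and 2.03 CPM to 12.4, 4.85, 5.00 and 17.2 CPM. Its late levels were 7.56, 9.35 and 9.93 CPM in the shams and 35.3, 24.4 and 19.5 CPM after MI. The late effect of 1.56 ± 0.45 was a call with the day-1 libraries alone (adjusted p = 0.0352) and not in the shared fit (0.284).

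Ahnak2, a large scaffold protein, had effects of like size at both follow-ups, at 1.67 ± 0.27 at 3 days (adjusted p = 0.00229) and 1.54 ± 0.52 at 21 days (adjusted p = 0.288, and 0.0358 alone). Casq1, the calsequestrin of skeletal muscle, rose from 7.38, 5.83, 14.2 and 5.56 CPM to 17.9, 21.0, 17.1 and 35.2 CPM at 3 days (adjusted p = 0.0110, and 0.0541 alone). After 21 days it stood at 59.1, 57.6 and 41.6 CPM in the shams and 384, 310.5 and 94.5 CPM after MI, where every MI library lay above every sham (2.32 ± 0.53, adjusted p = 0.231, and 0.0319 alone), as did the skeletal muscle marker sums given above. Qsox1, a disulfide-forming enzyme of secreted proteins, had log2 fold changes of 1.36 ± 0.19 (adjusted p = 6.81e-04) and 1.12 ± 0.44 (adjusted p = 0.303). Cnn1, the smooth muscle calponin, had 1.96 ± 0.42 (adjusted p = 0.0132, and 0.0526 alone, lost without 1d-SHAM + 3 replicate 4 (adjusted p = 0.0558)) and 1.70 ± 0.50 (adjusted p = 0.284). No late effect of these 4 genes passed adjustment in the shared fit.

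Among the genes lower at both follow-ups was a component of the clock. Nr1d2, the nuclear receptor REV-ERB beta, stood at 81.1, 71.5, 91.3 and 93.5 CPM in the shams and 60.9, 46.3, 63.5 and 39.1 CPM after MI at 3 days. The effect on Nr1d2 was -0.69 ± 0.18 (adjusted p = 0.0270, and 0.0823 alone). By 21 days it was at 44.7, 35.5 and 55.6 CPM and 10.9, 10.2 and 25.9 CPM. Every MI library lay outside the range of the shams (-1.53 ± 0.42, adjusted p = 0.284, and 0.0458 alone). Its acute call was lost without each of 1d-SHAM + 3 replicates 3 and 4 and 1d-MI + 3 replicates 2 and 4 (largest adjusted p = 0.0900). Abca6, a lipid transporter of the ABC family, had log2 fold changes of -1.07 ± 0.27 (adjusted p = 0.0240, and 0.0639 alone) and -1.64 ± 0.42 (adjusted p = 0.284, and 0.0458 alone). Efnb3, a membrane-bound ephrin ligand, had -1.03 ± 0.30 (adjusted p = 0.0438, and 0.0983 alone) and -1.22 ± 0.55 (adjusted p = 0.331). The acute calls of both were lost with single libraries left out. This held for Abca6 without each of 1d-SHAM + 3 replicates 3 and 4 and 1d-MI + 3 replicates 1, 2 and 4 (largest adjusted p = 0.0848). It held for Efnb3 without each of 1d-SHAM + 3 replicates 1, 3 and 4 and 1d-MI + 3 replicates 1, 2 and 4 (largest adjusted p = 0.132). The mitochondrial threonine tRNA mt-Tt was lower in every MI library at both follow-ups, at -0.94 ± 0.17 (adjusted p = 0.00353) and -2.03 ± 0.65 (adjusted p = 0.284, and 0.0400 alone).

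The 221 overshooting genes turned their direction in all but 1 case, mostly from lower to higher. The median of genes of 5 CPM or more also moved from -0.17 to 0.26. The class held 110 genes with RLE size factors, 88 with upper-quartile scaling and 62 among genes of 5 CPM or more. It held 2 with the day-1 libraries alone, 290 with DESeq2, 9 with shams of prefix 1078 only and 539 with those of prefix 1103 only. Ccn3, a matricellular protein of the CCN family (ENSMUSG00000037362, chromosome 15, 54745702 to 54754039), was classed as resolved in the shared fit and as reversed with the day-1 libraries alone. It stood at 29.9, 27.5, 23.1 and 22.6 CPM in 1d-SHAM + 3 and at 4.50, 4.87, 7.64 and 4.65 CPM in 1d-MI + 3 (-2.25 ± 0.30, adjusted p = 7.88e-04). Late after surgery it was at 2.56, 1.94 and 2.11 CPM in 1d-SHAM + 21 and at 4.19, 7.42 and 9.89 CPM in 1d-MI + 21, so the groups separated downwards early and upwards late. For Ccn3 the log2 fold change was 1.70 ± 0.45 (adjusted p = 0.284, and 0.0412 alone). The difference of 4.02 ± 0.54 (adjusted p = 3.14e-04) held with every library left out and in each of the 30 alternatives run for it.

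Tppp3, a tubulin-binding relative of Tppp, turned further. It stood at 5.57, 4.52, 6.29 and 9.12 CPM in the shams and 3.04, 2.28, 3.20 and 3.39 CPM after MI at 3 days. For Tppp3 the log2 fold change was -1.09 ± 0.21 (adjusted p = 0.00455, and 0.0541 alone). In the late groups it was at 5.33, 7.90 and 3.54 CPM in the shams and 22.2, 34.0 and 29.9 CPM after MI (2.37 ± 0.50, adjusted p = 0.204, and 0.0205 alone). The difference was 3.56 ± 0.51 (adjusted p = 6.86e-04). Tsc22d3, a transcript induced by glucocorticoids, fell by 0.79 ± 0.15 at 3 days (adjusted p = 0.00374), from 53.6, 52.4, 56.8 and 74.7 CPM to 37.0, 32.6, 38.1 and 29.6 CPM. It stood at 76.4, 59.7 and 54.3 CPM against 166, 206 and 113 CPM at 21 days (1.35 ± 0.38, adjusted p = 0.284, and 0.0441 alone). Both genes thus lay below every sham early and above every sham late.

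Other genes fell at 3 days and had a positive effect at 21 days. Fbp2, the muscle fructose bisphosphatase, fell by 1.34 ± 0.22 at 3 days (adjusted p = 0.00237) and leaned to 1.47 ± 0.66 at 21 days (adjusted p = 0.327). Sord, sorbitol dehydrogenase, had -1.22 ± 0.21 (adjusted p = 0.00284, and 0.0541 alone) and 1.33 ± 0.54 (adjusted p = 0.314), and Npc1, which exports cholesterol from lysosomes, had -0.77 ± 0.15 (adjusted p = 0.00596, and 0.0829 alone) and 1.33 ± 0.37 (adjusted p = 0.284, and 0.0415 alone). Nt5dc2 had -1.05 ± 0.18 (adjusted p = 0.00297, and 0.0559 alone) and 1.43 ± 0.54 (adjusted p = 0.297, and 0.0401 alone). Ostf1 had -0.89 ± 0.16 (adjusted p = 0.00317) and 1.19 ± 0.47 (adjusted p = 0.303, and 0.0441 alone). The differences of these 5 genes were called, with adjusted p between 0.00249 and 0.0127, and that of Fbp2 was lost without 1d-SHAM + 21 replicate 5 (adjusted p = 0.0551).

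The opposite turn, from higher to lower, was seen in Gpx3, Maf, Cybb and Dab2. Gpx3, the secreted glutathione peroxidase (ENSMUSG00000018339, chromosome 11, 54902453 to 54910377), stood at 30.7, 40.8, 45.6 and 50.6 CPM in 1d-SHAM + 3 and 91.9, 64.0, 72.2 and 92.5 CPM in 1d-MI + 3. The effect on Gpx3 was 0.93 ± 0.20 (adjusted p = 0.00850). After 21 days it was at 80.9, 72.1 and 49.7 CPM in the shams and 28.9, 37.7 and 26.6 CPM after MI (-1.12 ± 0.33, adjusted p = 0.284, and 0.0499 alone). Its groups were apart at both follow-ups in opposite order, and the difference of -1.95 ± 0.36 (adjusted p = 0.00482) held with every library left out. Maf, a transcription factor of resident macrophages, had 0.80 ± 0.18 at 3 days (adjusted p = 0.0126, and 0.0566 alone, lost without 1d-SHAM + 3 replicate 3 (adjusted p = 0.0503)) and -1.24 ± 0.32 at 21 days (adjusted p = 0.284, and 0.0400 alone). Cybb, the catalytic subunit of the phagocyte NADPH oxidase, had 1.33 ± 0.31 (adjusted p = 0.0171, and 0.0524 alone, lost without each of 1d-SHAM + 3 replicates 1 and 3 and 1d-MI + 3 replicate 4 (largest adjusted p = 0.0609)) and -1.35 ± 0.36 (adjusted p = 0.284, and 0.0413 alone). Dab2, an endocytic adaptor, went from 1.04 ± 0.18 (adjusted p = 0.00277) to -0.83 ± 0.27 (adjusted p = 0.284). The differences of Maf, Cybb and Dab2 were called with every library left out. Sums of the resident macrophage markers overlapped at both follow-ups, at 95.9 to 162 and 118 to 164 CPM at 3 days and 193 to 316 and 214 to 226 CPM at 21 days.

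The 4 late genes were Nr4a3, AI506816, Gm7292 and 1700030F04Rik. Nr4a3, an orphan nuclear receptor of the immediate early response (ENSMUSG00000028341, chromosome 4, 48045153 to 48086447), stood at 2.42, 1.29 and 3.42 CPM in 1d-SHAM + 21 and at 57.7, 46.4 and 22.4 CPM in 1d-MI + 21, far above every sham. For Nr4a3 the log2 fold change was 4.13 ± 0.57 (adjusted p = 0.0190, and 0.00850 alone). At 3 days its groups overlapped, at 2.69, 2.45, 0.642 and 0.666 CPM and 3.44, 2.59, 1.91 and 3.16 CPM. AI506816, a non-coding transcript, was at 0.427, 0.323 and 0.884 CPM in the shams and 5.05, 5.50 and 4.19 CPM after MI at 21 days (3.15 ± 0.47, adjusted p = 0.0369). Gm7292, a long intergenic RNA (ENSMUSG00000104222, chromosome 6, 117716342 to 117718868, plus strand), lies within 1700030F04Rik (ENSMUSG00000099869, 117646693 to 117751769, minus strand). The strand setting of the counting is not given in the sources used here, so the reads of the 2 genes cannot be told apart. Gm7292 was at 10.3, 1.69 and 7.62 CPM in 1d-SHAM + 21 and 0.235, 0.262 and 0.349 CPM in 1d-MI + 21 (adjusted p = 0.0157), and 1700030F04Rik had counts of 2, 5 and 3 in 1d-MI + 21 (adjusted p = 0.0157). The late call of Nr4a3 was lost without each of 1d-SHAM + 21 replicates 2 and 3 and 1d-MI + 21 replicates 1 and 2 (largest adjusted p = 0.228). That of AI506816 was lost without each of 1d-SHAM + 21 replicates 2 and 3 and 1d-MI + 21 replicates 1 and 2 (largest adjusted p = 0.458). Gm7292 lost its call without each of 1d-SHAM + 21 replicate 2 and 1d-MI + 21 replicates 1 and 2 (largest adjusted p = 0.0853). For 1700030F04Rik this happened without each of 1d-SHAM + 21 replicate 2 and 1d-MI + 21 replicate 1 (largest adjusted p = 0.0769). The differences from 3 days were called for all 4 with every library left out.

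**Figure D4:**
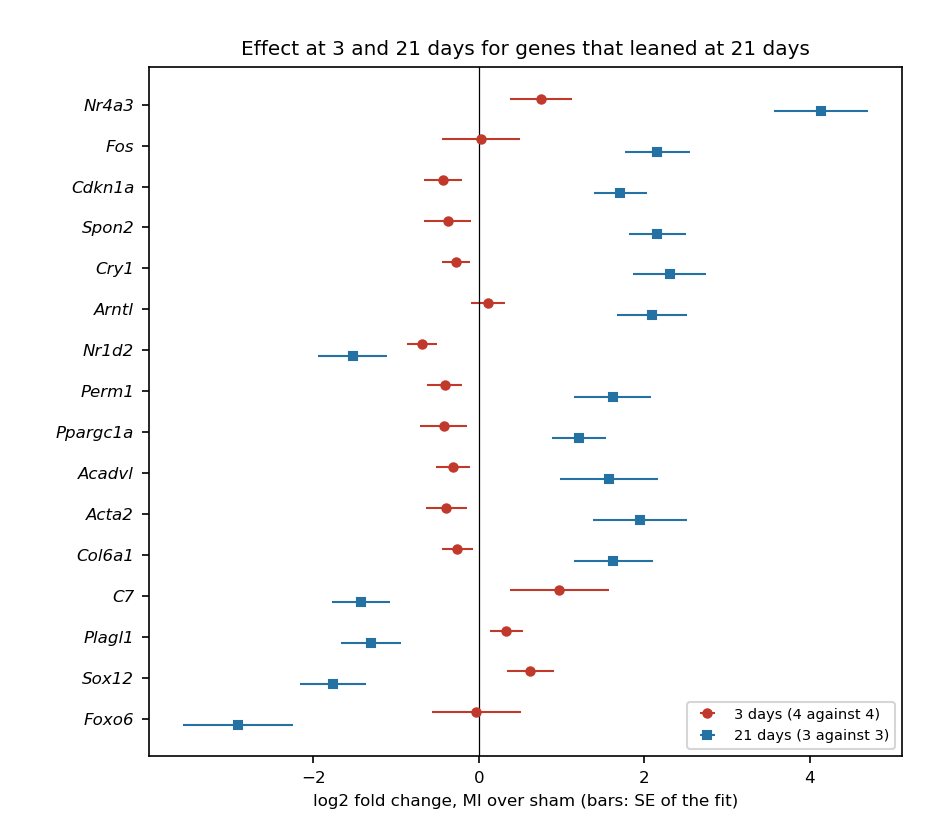
Log2 fold change of MI over sham with its SE from the fit (bars), at 3 days as red points and at 21 days as blue squares, for 16 genes that leaned at 21 days. Nr4a3 has the largest late effect at 4.13, Arntl and Cry1 lie near 0 at 3 days and above 2 at 21 days while Nr1d2 lies below 0 at both, and Foxo6 is lowest at 21 days.

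Below the threshold, immediate early and clock genes leaned at 21 days beside Nr4a3. Fos, a subunit of the transcription factor AP-1, was at 1.97, 1.13 and 1.91 CPM in 1d-SHAM + 21 and 4.44, 11.3 and 6.86 CPM in 1d-MI + 21, and its 3-day levels overlapped. For Fos the log2 fold change was 2.16 ± 0.39 (adjusted p = 0.167, and 0.0296 alone). Arntl, which encodes the clock activator BMAL1, was at 6.17, 2.94 and 4.08 CPM in the shams and 24.0, 19.8 and 12.8 CPM after MI. The effect on Arntl was 2.09 ± 0.43 (adjusted p = 0.198, and 0.0252 alone). Cry1, a repressor of the same clock, was at 2.82, 2.18 and 1.72 CPM and 13.7, 13.6 and 6.18 CPM, and the groups of all 3 genes did not overlap. For Cry1 the log2 fold change was 2.31 ± 0.44 (adjusted p = 0.198, and 0.0252 alone). The differences from 3 days were called, at 2.21 ± 0.65 for Fos (adjusted p = 0.0328), 2.08 ± 0.44 for Arntl (0.0107) and 2.65 ± 0.43 for Cry1 (0.00206). The difference of Fos was lost without each of 1d-SHAM + 3 replicate 1, 1d-MI + 3 replicates 1 and 2, 1d-SHAM + 21 replicates 2, 3 and 5 and 1d-MI + 21 replicates 1 and 2 (largest adjusted p = 0.161). In the clock list 5 of 18 members were higher and 5 lower at 21 days at an unadjusted p under 0.05, and in the immediate early list 8 of 24 were higher. Of all genes 8.58% were higher and 6.03% lower at that threshold, while no clock member and 1 immediate early member passed adjustment in the shared fit. With the day-1 libraries alone 4 clock members were called higher and 3 lower at 21 days, and 6 immediate early members higher. Of the 20609 genes in that fit 443 were called higher and 157 lower. Transcripts of the clock depend on the hour at which tissue is taken, the labels do not give that hour, and its part was not tested.

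The promoters of these genes are shown because known response elements of the pathways are short enough to read in them. Each gene was searched only for a motif chosen for it, and the window shown was picked for holding that motif. The windows run from 250 bases before to 50 after the start of the RefSeq gene on the build GRCm38.p6, written 5′ to 3′ on the strand of the gene, and capitals mark every match, on either strand, of the motif searched in that gene. TGACG, the half-site of the cyclic AMP response element, was searched in Nr4a3 (chr4:48045055-48045354, plus strand) and in Fos (chr12:85473640-85473939, plus strand), TAGGTCA, the core bound by ROR and REV-ERB receptors, in Arntl (chr7:113207261-113207560, plus strand), and CACGTG, the E-box of the clock activators, in Cry1 (chr10:85185005-85185304, minus strand).
Nr4a3: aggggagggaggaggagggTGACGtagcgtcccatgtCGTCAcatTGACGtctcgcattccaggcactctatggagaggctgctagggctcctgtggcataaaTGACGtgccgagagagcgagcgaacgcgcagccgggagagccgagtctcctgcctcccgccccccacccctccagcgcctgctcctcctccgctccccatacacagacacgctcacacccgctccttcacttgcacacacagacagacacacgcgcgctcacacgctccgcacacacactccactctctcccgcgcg
Fos: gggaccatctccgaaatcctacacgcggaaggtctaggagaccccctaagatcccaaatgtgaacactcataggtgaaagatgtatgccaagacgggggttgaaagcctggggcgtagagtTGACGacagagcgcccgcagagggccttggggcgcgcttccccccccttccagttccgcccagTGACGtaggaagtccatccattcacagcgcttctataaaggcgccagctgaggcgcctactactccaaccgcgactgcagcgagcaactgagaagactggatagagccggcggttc
Arntl: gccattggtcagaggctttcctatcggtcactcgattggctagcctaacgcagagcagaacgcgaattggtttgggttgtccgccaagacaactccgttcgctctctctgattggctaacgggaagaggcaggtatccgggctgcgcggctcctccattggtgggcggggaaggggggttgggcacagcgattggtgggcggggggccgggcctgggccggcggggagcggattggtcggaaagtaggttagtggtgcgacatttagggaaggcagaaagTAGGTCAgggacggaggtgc
Cry1: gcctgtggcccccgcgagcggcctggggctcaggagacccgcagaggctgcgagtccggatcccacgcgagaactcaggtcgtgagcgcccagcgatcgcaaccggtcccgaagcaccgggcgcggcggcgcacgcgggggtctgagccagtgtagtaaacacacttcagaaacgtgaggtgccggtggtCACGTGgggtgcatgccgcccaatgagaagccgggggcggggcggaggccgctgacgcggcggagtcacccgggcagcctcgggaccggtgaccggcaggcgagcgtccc
Among all 32851 promoters of this length 20.8% held TGACG, 2.61% held TAGGTCA and 7.15% held CACGTG on either strand. Because the windows shown were picked for a match, a match in every sequence was fixed in advance. It cannot be set against these shares. A match of letters is a description of the window and shows no binding in these hearts.

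Other genes that leaned late without an acute call included a cell cycle inhibitor and matrix genes. Cdkn1a, the inhibitor p21, was at 6.18, 4.52 and 7.57 CPM in 1d-SHAM + 21 and 24.4, 17.9 and 17.6 CPM in 1d-MI + 21. For Cdkn1a the log2 fold change was 1.71 ± 0.32 (adjusted p = 0.194, and 0.0267 alone). Spon2, a secreted matrix protein, was at 2.59, 2.70 and 2.52 CPM and 11.3, 13.3 and 10.2 CPM (2.16 ± 0.35, adjusted p = 0.0775, and 0.0123 alone). In both genes the late groups were far apart while the acute groups overlapped, and the differences of 2.25 ± 0.40 (adjusted p = 0.00386) and 2.58 ± 0.48 (0.00474) held with every library left out. Col6a1, a collagen VI chain, had late levels of 75.3, 74.2 and 73.3 CPM in the shams and 275, 245 and 168 CPM after MI. The effect on Col6a1 was 1.63 ± 0.48 (adjusted p = 0.284, and 0.0275 alone). Acta2, the smooth muscle actin of myofibroblasts and vessels, had late levels of 85.9, 152 and 36.4 CPM and 440.2, 275 and 345 CPM. Sums of smooth muscle and pericyte markers stood at 465 to 637 CPM in 1d-SHAM + 21 and 718 to 979 CPM in 1d-MI + 21. For Acta2 the log2 fold change was 1.95 ± 0.57 (adjusted p = 0.284, and 0.0451 alone). Fbln2, the matrix protein fibulin-2, rose at 3 days (0.74 ± 0.19, adjusted p = 0.0255, and 0.0968 alone, lost without each of 1d-SHAM + 3 replicates 1, 3 and 4 and 1d-MI + 3 replicates 1 and 4 (largest adjusted p = 0.102)) and leaned higher at 21 days (1.36 ± 0.47, adjusted p = 0.290). The differences of Col6a1 and Acta2 were called. That of Col6a1 was lost without each of 1d-SHAM + 21 replicate 5 and 1d-MI + 21 replicates 1 and 2 (largest adjusted p = 0.0591). That of Acta2 was lost without each of 1d-SHAM + 21 replicates 2 and 5 and 1d-MI + 21 replicate 1 (largest adjusted p = 0.0825).

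Among genes lower late, Sox12, a transcription factor, stood at 16.7, 17.9 and 12.5 CPM in 1d-SHAM + 21 and 4.47, 6.13 and 3.38 CPM in 1d-MI + 21. For Sox12 the log2 fold change was -1.76 ± 0.40 (adjusted p = 0.231, and 0.0252 alone). Foxo6, a forkhead factor, was at 4.20, 12.5 and 1.81 CPM and 0.392, 0.872 and 1.15 CPM. The effect on Foxo6 was -2.91 ± 0.66 (adjusted p = 0.231, and 0.0400 alone), and its difference from 3 days was lost without each of 1d-SHAM + 3 replicates 3 and 4, 1d-MI + 3 replicates 1 and 2, 1d-SHAM + 21 replicates 2 and 3 and 1d-MI + 21 replicates 1 and 2 (largest adjusted p = 0.130). Plagl1, an imprinted regulator of growth, was at 18.3, 17.1 and 25.7 CPM and 7.20, 8.70 and 8.86 CPM, and the log2 fold change was -1.30 ± 0.37 (adjusted p = 0.284, and 0.0395 alone). Its difference from 3 days was lost without each of 1d-SHAM + 21 replicate 5 and 1d-MI + 21 replicate 1 (largest adjusted p = 0.0753). Igf1, the growth factor IGF-1, was at 50.4, 28.3 and 64.5 CPM and 19.5, 21.6 and 24.3 CPM (-1.13 ± 0.37, adjusted p = 0.287), below every sham in every MI library, and its difference was not called (adjusted p = 0.0871). Among mitochondrial RNAs, mt-Rnr1, the small ribosomal RNA, was at 3052, 1904 and 4363 CPM in 1d-SHAM + 21 and 501, 434 and 230.3 CPM in 1d-MI + 21 (adjusted p = 0.231, and 0.0123 alone). The valine tRNA mt-Tv next to it in the genome had a late log2 fold change of -3.70 ± 0.78 (adjusted p = 0.204, and 0.00850 alone). The share of nuclear ribosomal RNA varied from 0.467 to 69.8% among these same libraries, and its part in the mitochondrial ribosomal RNA levels was not tested.

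Genes of fatty acid oxidation leaned down at 3 days and up at 21 days. At 3 days 7 of 29 members fell, against 4.36% of all genes and 730 of the 7801 genes of 5 CPM or more, and none rose. None was called at 3 days with the day-1 libraries alone. The list median was -0.32 at 3 days and 0.69 at 21 days. No member was called at 21 days in the shared fit, and 2 were called higher with the day-1 libraries alone. The difference was called upwards for 11, against 6.83% of all genes and 1127 of the 7801 genes of 5 CPM or more. Of the 29 members 27 reached 5 CPM at both follow-ups. Acaa2, the last enzyme of mitochondrial beta-oxidation, stood at 317, 308, 427 and 609.8 CPM in the shams and 225, 226, 311 and 224 CPM after MI at 3 days. For Acaa2 the log2 fold change was -0.75 ± 0.19 (adjusted p = 0.0220, and 0.111 alone). By 21 days it was at 86.8, 169 and 73.3 CPM in 1d-SHAM + 21 and 331, 199.7 and 176 CPM in 1d-MI + 21 (adjusted p = 0.392). The groups overlapped at 3 days and not at 21 days, and the acute call was lost without each of 1d-SHAM + 3 replicate 4 and 1d-MI + 3 replicates 1, 2 and 4 (largest adjusted p = 0.0800). Crat, carnitine acetyltransferase, had -0.68 ± 0.18 at 3 days (adjusted p = 0.0245, and 0.118 alone, lost without each of 1d-SHAM + 3 replicates 3 and 4 and 1d-MI + 3 replicates 1, 2 and 4 (largest adjusted p = 0.0800)) and 1.47 ± 0.61 at 21 days (adjusted p = 0.314). Acadvl, the very long chain acyl-CoA dehydrogenase, was at 117, 140.3 and 96.2 CPM in 1d-SHAM + 21 and 496, 300.0 and 253 CPM in 1d-MI + 21. The effect on Acadvl was 1.57 ± 0.59 (adjusted p = 0.296, and 0.0401 alone). The differences were called, and that of Acaa2 was lost without each of 1d-SHAM + 3 replicates 3 and 4, 1d-MI + 3 replicates 1, 2 and 4, 1d-SHAM + 21 replicates 2 and 5 and 1d-MI + 21 replicates 1 and 2 (largest adjusted p = 0.165). That of Crat was lost without each of 1d-SHAM + 21 replicates 2 and 5 and 1d-MI + 21 replicates 1 and 2 (largest adjusted p = 0.111). The call for Acadvl was lost without each of 1d-SHAM + 3 replicates 3 and 4, 1d-MI + 3 replicates 1, 2 and 4, 1d-SHAM + 21 replicates 2, 3 and 5 and 1d-MI + 21 replicates 1 and 2 (largest adjusted p = 0.138).

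Regulators of this metabolism had the highest late median of the 26 pathway lists under TMM scaling. Of 20 PGC-1, PPAR and ERR regulators 1 fell at 3 days, against 4.36% of all genes, and none did with the day-1 libraries alone. At 21 days 10 were higher at an unadjusted p under 0.05, against 8.58% of all genes. None passed adjustment in the shared fit, and 2 were called higher with the day-1 libraries alone. The medians were -0.26 and 0.88. Of the differences 7 were called upwards, against 6.83% of all genes and 1127 of the 7801 genes of 5 CPM or more, a level that 13 of the 20 reached. Ppargc1a, the coactivator PGC-1 alpha, stood at 96.5, 63.3 and 95.1 CPM in 1d-SHAM + 21 and 233, 202 and 154 CPM in 1d-MI + 21 (1.21 ± 0.33, adjusted p = 0.284). Perm1, a muscle factor acting with it, was at 55.8, 63.7 and 49.5 CPM and 237, 160.3 and 121 CPM (1.62 ± 0.47, adjusted p = 0.284, and 0.0351 alone). Neither gene overlapped between the late groups or was called at 3 days. The difference of Ppargc1a was lost without each of 1d-SHAM + 21 replicates 2, 3 and 5 and 1d-MI + 21 replicates 1 and 2 (largest adjusted p = 0.0716). For Perm1 it was lost without each of 1d-SHAM + 21 replicate 5 and 1d-MI + 21 replicate 1 (largest adjusted p = 0.0576). The TCA cycle list had medians of -0.24 and 0.70 with 1 of 19 members lower at 3 days and 5 differences called upwards. Nuclear genes of the respiratory chain had medians of -0.32 and -0.05 with 4 of 42 lower at 3 days and 8 differences called upwards. Of all genes 4.36% were lower at 3 days, a share near that of the TCA cycle list, and 6.83% had a difference called upwards. All 42 respiratory chain members and 18 of 19 TCA cycle members reached 5 CPM at both follow-ups. Of the 7801 genes at that level 730 were lower at 3 days, a share near that of the respiratory chain list. A difference was called upwards for 1127 of them. No member of either list was called at 3 days with the day-1 libraries alone. At 21 days that fit called 1 TCA cycle and 3 respiratory chain members higher.

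Single members of the respiratory chain leaned in different directions at 21 days. Atp5o, a subunit of ATP synthase, fell by 0.91 ± 0.20 at 3 days (adjusted p = 0.0121, and 0.0977 alone) and leaned to 1.03 ± 0.44 at 21 days (adjusted p = 0.317), with a difference lost without 1d-SHAM + 21 replicate 5 (adjusted p = 0.0686). Sdhb, the iron-sulfur subunit of complex II, was at 117, 63.4 and 75.5 CPM in 1d-SHAM + 21 and 278, 222 and 182 CPM in 1d-MI + 21 (adjusted p = 0.302, and 0.0436 alone). Its difference from 3 days was lost without each of 1d-SHAM + 3 replicates 3 and 4, 1d-MI + 3 replicates 1, 2 and 4, 1d-SHAM + 21 replicates 2, 3 and 5 and 1d-MI + 21 replicates 1 and 2 (largest adjusted p = 0.167). Cox6a2, the muscle form of a cytochrome oxidase subunit, was lower at both follow-ups, at -0.81 ± 0.22 (adjusted p = 0.0327, and 0.131 alone, lost without each of 1d-SHAM + 3 replicates 3 and 4 and 1d-MI + 3 replicates 1, 2 and 4 (largest adjusted p = 0.112)) and -1.51 ± 0.62 (adjusted p = 0.314). Its late levels were 1664, 6592 and 1615 CPM in the shams and 1167, 1435 and 855 CPM after MI, with 1d-SHAM + 21 replicate 3 far above the others.

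Genes of glucose use had few acute calls. In the glycolysis list 4 of 25 members rose at 3 days, against 4.1% of all genes, and none fell. In the day-1 libraries alone 1 was called higher at 3 days and 3 at 21 days. The list median was 0.05 at 3 days and 0.80 at 21 days. Slc2a1, the glucose transporter GLUT1, stood at 5.89, 4.40, 4.78 and 3.26 CPM in 1d-SHAM + 3 and 7.48, 10.4, 6.69 and 10.8 CPM in 1d-MI + 3. For Slc2a1 the log2 fold change was 0.94 ± 0.23 (adjusted p = 0.0186, and 0.0632 alone, lost without each of 1d-SHAM + 3 replicate 4 and 1d-MI + 3 replicates 2 and 4 (largest adjusted p = 0.0659)). Late after surgery it was at 5.22, 7.10 and 4.33 CPM and 9.28, 10.9 and 11.5 CPM, without overlap at either follow-up (0.93 ± 0.31, adjusted p = 0.288). Slc16a3, the lactate exporter MCT4, rose by 1.78 ± 0.34 at 3 days (adjusted p = 0.00506), from 2.37, 2.69, 1.86 and 0.533 CPM to 5.66, 6.28, 6.05 and 7.92 CPM. Bnip3, a hypoxia-induced mitophagy receptor, rose by 1.05 ± 0.21 (adjusted p = 0.00563), from 225, 193, 115 and 146 CPM to 289, 334, 389 and 398 CPM. It was at 40.0, 30.6 and 28.4 CPM and 54.0, 54.4 and 54.3 CPM at 21 days. In Bnip3 every MI library stood above every sham at both follow-ups. Hk1, hexokinase 1, was at 36.6, 35.6 and 27.3 CPM in 1d-SHAM + 21 and 125, 60.1 and 63.3 CPM in 1d-MI + 21 (adjusted p = 0.289). The difference was lost without each of 1d-SHAM + 3 replicate 3, 1d-MI + 3 replicate 2, 1d-SHAM + 21 replicates 2, 3 and 5 and 1d-MI + 21 replicates 1 and 2 (largest adjusted p = 0.136). Vegfa, the growth factor of endothelium, was at 138, 192 and 67.8 CPM and 474, 465 and 238 CPM, and its difference missed the threshold (adjusted p = 0.0547). For Vegfa the log2 fold change was 1.56 ± 0.54 (adjusted p = 0.290).

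Cell cycle genes leaned lower acutely with few calls. Of 30 DNA replication genes 1 fell at 3 days (median -0.39) and of 32 genes of mitosis and cytokinesis 1 fell (median -0.51), against a median of -0.17 over genes of 5 CPM or more. Only 5 members of each list reached 5 CPM at both follow-ups. In a fit of such genes their medians were -0.23 and -0.30, against -0.01 over all genes of that fit. Both shares that fell were below the 4.36% of all genes. Neither call was made with the day-1 libraries alone. Mcm6, a subunit of the replicative helicase, stood at 46.8, 41.7, 63.2 and 45.5 CPM in the shams and 17.4, 27.3, 41.2 and 34.0 CPM after MI. The groups were fully apart (-0.72 ± 0.19, adjusted p = 0.0284, and 0.128 alone, lost without each of 1d-SHAM + 3 replicate 3 and 1d-MI + 3 replicates 1 and 2 (largest adjusted p = 0.0972)). At 21 days the medians of the 2 lists were 0.06 and 0.33. Cdk1, the kinase of mitotic entry, was at 1.43, 1.21 and 1.04 CPM in 1d-SHAM + 21 and 4.45, 3.05 and 3.90 CPM in 1d-MI + 21. The effect on Cdk1 was 1.63 ± 0.34 (adjusted p = 0.204, and 0.0401 alone). Ccnb2, a mitotic cyclin, was at 0.703, 1.37 and 0.703 CPM and 3.62, 2.14 and 1.99 CPM (adjusted p = 0.284). Both were above every sham late and overlapped at 3 days, and the difference of Ccnb2 was lost without each of 1d-SHAM + 21 replicate 5 and 1d-MI + 21 replicate 1 (largest adjusted p = 0.0617). Among CDK inhibitors and p53 targets 1 of 18 rose and 4 fell at 3 days, against 4.1% and 4.36% of all genes. None of these was called with the day-1 libraries alone, and the list medians were -0.21 and -0.29. Jun, a subunit of AP-1 in the immediate early list, fell by 0.91 ± 0.16 at 3 days (adjusted p = 0.00297, and 0.0541 alone) while its relative Junb rose by 1.23 ± 0.24 (adjusted p = 0.00498, and 0.0702 alone). The difference of Jun was called and was lost without each of 1d-SHAM + 3 replicates 3 and 4, 1d-MI + 3 replicates 1, 2 and 4, 1d-SHAM + 21 replicates 2 and 5 and 1d-MI + 21 replicates 1 and 2 (largest adjusted p = 0.130). That of Junb was called and was lost without each of 1d-SHAM + 3 replicates 1, 3 and 4, 1d-MI + 3 replicates 1, 2 and 4, 1d-SHAM + 21 replicates 2 and 3 and 1d-MI + 21 replicates 1 and 3 (largest adjusted p = 0.170).

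The remaining lists had medians within the range of those above. Their counts at 3 days stand against 4.1% higher and 4.36% lower among all genes, and a single member called in a list was near these shares. Calcium handling and ion channels had 2 of 24 lower at 3 days and medians of -0.39 and 0.09. Xirp1, a relative of Xirp2, had a log2 fold change of 0.03 ± 0.15 at 3 days and was at 27.7, 43.5 and 17.6 CPM and 165, 83.5 and 62.5 CPM at 21 days (adjusted p = 0.284, and 0.0452 alone). Matricellular and myofibroblast genes had 6 higher and 2 lower of 24 at 3 days (medians 0.64 and 0.37), matrix proteases 4 higher of 22 (0.55 and 0.72), angiogenesis and hypoxia 1 higher and 3 lower of 25 (0.01 and 0.51) and Hippo and Yap targets 1 and 1 of 18 (-0.17 and 0.45). Insulin-like and imprinted growth genes had 1 of 20 higher (0.23 and -0.04), Atf4 and unfolded protein stress 1 of 24 higher (0.29 and 0.66), the clock 1 of 18 lower (0.08 and 0.44), immediate early genes 2 higher and 1 lower of 24 (0.41 and 0.60) and heat shock chaperones none of 15 (-0.07 and 0.42). At 3 days the day-1 libraries alone gave 2 matricellular genes higher and 1 lower and 1 gene higher in each of the protease, angiogenesis and growth lists. None was called at 3 days in the other lists just named. At 21 days that fit called 4 matricellular and 4 protease genes higher, beside the clock and immediate early calls given above. The sign of several late medians depended on the scaling. With upper-quartile scaling, which put the median of genes of 5 CPM or more at -0.07, the late medians of calcium handling (-0.25), DNA replication (-0.27), mitosis (-0.01), the phagocyte list (-0.26) and MHC class II (-0.14) were below 0. Under that scaling those of fatty acid oxidation (0.38), the TCA cycle (0.36), glycolysis (0.47) and the PGC-1 regulators (0.58) stayed above it.

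**Figure D5:**
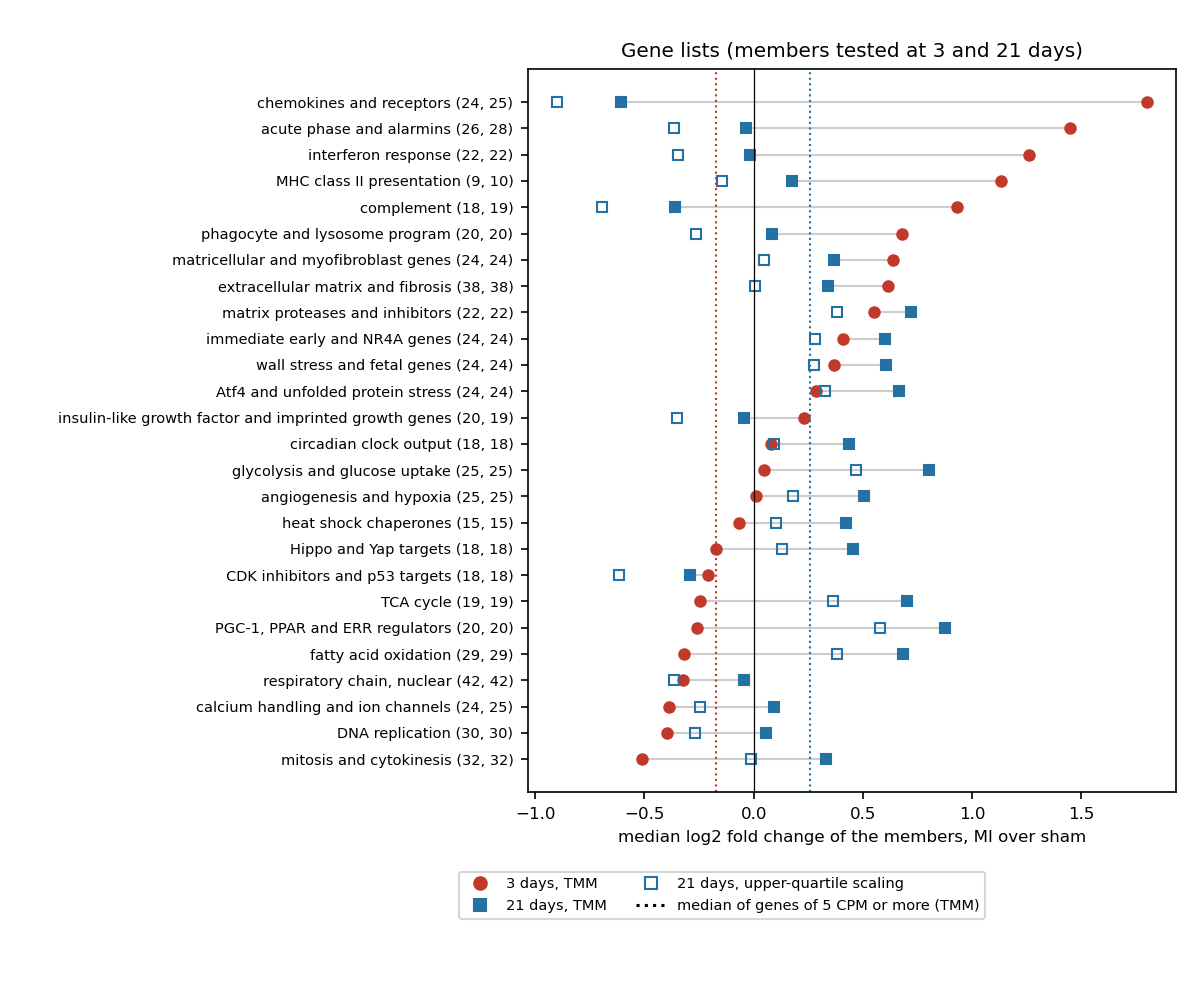
Median log2 fold change of MI over sham for the members of 26 pathway lists (numbers tested at 3 and 21 days in brackets), at 3 days as red points and at 21 days as filled blue squares (TMM scaling) or open squares (upper-quartile scaling), with dotted lines at the medians of genes of 5 CPM or more. Chemokines and alarmins lie highest at 3 days at 1.80 and 1.45 and at or below 0 at 21 days, while fatty acid oxidation and the PGC-1 regulators lie below 0 at 3 days and at 0.69 and 0.88 at 21 days. Only 2 chemokine and 4 alarmin members reach 5 CPM at both follow-ups.

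The change from the acute to the late effect was compared with that in mice operated on at day 7. Of 19765 genes 4 differed between the ages at an adjusted p under 0.05 by edgeR's test, and 1721 had an unadjusted p under 0.05. The 4 were Plk1, a mitotic kinase, at 4.11 on the log2 scale (day-1 change minus day-7 change), and the non-coding Gm7292 at -5.10, 1700030F04Rik at -6.20 and Gm20305 at -7.56, with an adjusted p of 0.0462 each. Plk1 and Gm20305 are named for this result after their values were seen. The count was 0 to 8 with 1 library left out in turn, and Gm7292 and 1700030F04Rik are the overlapping late genes described above.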

How the data were processed

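Total RNA of the myocardium was sequenced, and the authors deposited, for each library, a count per gene and values derived from it. Only the deposited counts were used, and lanes of 1 sample were summed. The submitters' notes name the build GRCm38 and the tools Cufflinks (2.2.1), Bowtie2 (2.2.2) and TopHat2 (2.0.11). What counted the reads, on which strand and with which annotation, is not given in the sources used here. Gene IDs tied 44671 of the 45318 rows to GENCODE M21. Promoters came from RefSeq (GRCm38.p6).

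Counts were fitted with edgeR 4.0.16 (limma 3.58.1, R 4.3.3): filterByExpr (minimum count 10, minimum total 15), TMM scaling, robust quasi-likelihood and group means, with 16 libraries at 3 days, 12 at 21 days and 28 for differences between effects. P-values were adjusted by Benjamini-Hochberg over all genes tested, at 0.05. Each SE was obtained by dividing the size of a log2 fold change by √F. Replicate libraries were not duplicates, since their log2 CPM correlated at 0.9185 to 0.9802 and their counts differed by a chi-square of at least 35.4 per gene. Figures were drawn with matplotlib 3.10.9 and tables made with pandas 2.3.3 and numpy 2.4.6 (Python 3.11.15). The scripts were tested on simulated data.

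Named genes were the persistent, reversed, late and overshooting genes of smallest p, the resolved and undetermined genes of largest fold change whose groups did not overlap, genes with unadjusted late effects, and the members of smallest p of 26 pathway lists. Some genes that these rules named are not reported here. The genes, lists (19 more for cell markers) and rules were chosen with earlier results of these data known. Alternatives covered scaling, filters, DESeq2 1.42.0, limma-voom, the day-1 groups alone, prefixes and single libraries. Background subtraction and the restriction to genes of 5 CPM or more were added after seeing the data.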

Additional observations from a re-analysis of the deposited data

Results flagged for a closer look

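In groups of 4 libraries, 1 library lay far from the other 3, by a gap above the 95% critical value of Dixon for the range of the group, in 11 of 194 groups tested (5.67%), and chance alone gives about 1 in 20. The level far from the others was 512 CPM for Xirp2 in 1d-MI + 3 replicate 2, 1.23 CPM for Trem2 in 1d-MI + 3 replicate 3, 7.64 CPM for Ccn3 in 1d-MI + 3 replicate 3, 544 CPM for Fn1 in 1d-MI + 3 replicate 4, 29.5 CPM for Dab2 in 1d-MI + 3 replicate 4, 17.6 CPM for Maf in 1d-SHAM + 3 replicate 3, 3.26 CPM for Gm7292 in 1d-SHAM + 3 replicate 4, 0.545 CPM for Gm7292 in 1d-MI + 3 replicate 1, 311 CPM for Acaa2 in 1d-MI + 3 replicate 3, 214 CPM for Acta2 in 1d-MI + 3 replicate 4 and 94.3 CPM for Xist in 1d-SHAM + 3 replicate 3. Of these libraries 1d-MI + 3 replicate 3 was the low one for Trem2 and 1d-SHAM + 3 replicate 3 the high one for Xist. Single libraries are left out in turn in the results on processing.

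The MI effect differed between 3 and 21 days, by edgeR's test of the difference at an adjusted p under 0.05, for 65 of the genes named. Values are the log2 effect at 21 days minus that at 3 days. The effect was lower at 21 days for Spp1 (-11.153), Mmp12 (-7.970), Gpnmb (-7.248), Lgals3 (-6.541), 1700030F04Rik (-5.708), Gm7292 (-4.143), Ccl7 (-3.915), Nppa (-3.397), Col8a1 (-3.370), Trem2 (-3.056), Foxo6 (-2.775), C3 (-2.767), Xirp2 (-2.738), mt-Tv (-2.704), Cthrc1 (-2.679), mt-Rnr1 (-2.632), Ccl6 (-2.630), Cybb (-2.558), C3ar1 (-2.534), Timp1 (-2.403), Sox12 (-2.269), C7 (-2.257), Gpx3 (-1.947), Maf (-1.939), Ctss (-1.825), Dab2 (-1.770), Igfbp3 (-1.662), Plagl1 (-1.574), Bgn (-1.535), Junb (-1.271) and Il1r1 (-1.129). It was higher at 21 days for Ccn3 (4.019), Tppp3 (3.564), Nr4a3 (3.447), AI506816 (3.104), Fbp2 (2.899), C1qtnf9 (2.716), Cry1 (2.652), Sord (2.638), Spon2 (2.581), Nt5dc2 (2.574), Acta2 (2.442), Cdkn1a (2.254), Crat (2.244), Tsc22d3 (2.240), Myh7 (2.233), Fos (2.211), Npc1 (2.203), Ostf1 (2.171), Tppp (2.135), Perm1 (2.125), Ccnb2 (2.086), Arntl (2.075), Atp5o (2.041), Cdk1 (1.982), Col6a1 (1.972), Jun (1.964), Acadvl (1.961), Acaa2 (1.943), Xirp1 (1.872), Ppargc1a (1.728), Fmo1 (1.652), Sdhb (1.616), Hk1 (1.541) and Tek (1.207). The values for Spp1, 1700030F04Rik and Lgals3 rest on MI libraries at or near 0 at 21 days, so their size depends on the prior count of the fit. Of the 65 genes 28 kept the call of the difference with every library left out in turn. For Ctss it was lost without each of 1d-SHAM + 3 replicates 1, 2 and 3, 1d-MI + 3 replicates 1, 2 and 4, 1d-SHAM + 21 replicates 2 and 5 and 1d-MI + 21 replicates 1 and 2 (largest adjusted p = 0.118). For Il1r1 it was lost without 1d-MI + 21 replicate 1 (adjusted p = 0.0681). For C3 it was lost without each of 1d-SHAM + 3 replicates 1 and 3, 1d-MI + 3 replicates 1, 2 and 4, 1d-SHAM + 21 replicate 5 and 1d-MI + 21 replicates 1 and 2 (largest adjusted p = 0.111). For C7 it was lost without 1d-MI + 21 replicate 1 (adjusted p = 0.0591). For Xirp1 it was lost without each of 1d-MI + 3 replicate 2, 1d-SHAM + 21 replicates 2 and 5 and 1d-MI + 21 replicates 1 and 2 (largest adjusted p = 0.119). For mt-Rnr1 it was lost without each of 1d-SHAM + 3 replicate 3, 1d-MI + 3 replicates 1 and 2, 1d-SHAM + 21 replicates 2 and 5 and 1d-MI + 21 replicates 1, 2 and 3 (largest adjusted p = 0.0935). For mt-Tv it was lost without each of 1d-SHAM + 3 replicates 1, 2 and 3, 1d-MI + 3 replicates 1 and 2, 1d-SHAM + 21 replicate 5 and 1d-MI + 21 replicates 1 and 2 (largest adjusted p = 0.130).

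The change from 3 to 21 days differed between operations at day 1 and at day 7 for Gm7292 (-5.101), Gm20305 (-7.556), Plk1 (4.112) and 1700030F04Rik (-6.198), as the day-1 change minus the day-7 change on the log2 scale by the same test.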

How the results depend on the processing

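The counts reported were 1722 genes called at 3 days, 4 called at 21 days, 1893 different between follow-ups, 379 resolved, 1104 undetermined, 4 late, 0 persistent, 0 reversed and 4 different between ages, and 25 of 26 lists had a member called at 3 days. The sentences that follow give each of these counts that moved by over 1.5 times. Counts of overshooting genes under several settings are given with that class in the results. With no filter there were 2981 called at 3 days, 154 called at 21 days, 818 different between follow-ups, 15 persistent, 12 reversed, 127 late, 235 resolved and 2561 undetermined. With the day-1 groups alone there were 161 called at 3 days, 600 called at 21 days, 4 persistent, 5 reversed, 572 late, 97 resolved, 44 undetermined and 12 lists with a member called at 3 days. With DESeq2 there were 2789 called at 3 days, 328 called at 21 days, 24 persistent, 20 reversed, 235 late, 802 resolved and 83 different between ages. Shams of prefix 1078 only gave 428 called at 3 days, 155 different between follow-ups, 36 resolved, 380 undetermined, 10 lists with a member called at 3 days and 10 different between ages. Shams of prefix 1103 only gave 5599 called at 3 days, 4584 different between follow-ups, 1 persistent, 2311 resolved, 2338 undetermined and 7 different between ages. Background subtraction with the day-1 groups alone gave 187 called at 3 days, 334 called at 21 days, 3 persistent, 3 reversed, 313 late, 100 resolved, 63 undetermined and 12 lists with a member called at 3 days. Genes of 5 CPM or more at both follow-ups gave 519 called at 3 days, 0 called at 21 days, 506 different between follow-ups, 0 late, 85 resolved, 372 undetermined and 0 different between ages. A fold change floor of 1 on the log2 scale gave 786 called at 3 days, 463 undetermined and 15 lists with a member called at 3 days. A threshold of 0.1 gave 3179 called at 3 days, 3806 different between follow-ups, 868 resolved, 1759 undetermined and 8 different between ages. With upper-quartile scaling there were 2 called at 21 days, 2 late and 1 different between ages. With protein-coding genes only there were 1 called at 21 days, 1 late and 0 different between ages. With limma-voom there were 1 called at 21 days, 1 late and 0 different between ages. With quality weights in limma-voom there were 3890 called at 21 days, 6120 different between follow-ups, 120 persistent, 182 reversed, 3278 late, 954 resolved, 664 undetermined and 338 different between ages. With RLE size factors there were 1222 different between follow-ups and 1 different between ages. With a mean count of 50 or more there were 1082 different between follow-ups, 2 late and 1 different between ages. With ribosomal RNA and the top 20 genes out of the scaling there were 1193 different between follow-ups. With the replicate number as a block at 21 days (a replicate block) there were 186 different between follow-ups, 65 resolved and 0 different between ages. After background subtraction there were 1 different between ages. With 1 library left out in turn the ranges were 627 to 3319 called at 3 days, 0 to 7 called at 21 days, 194 to 3215 different between follow-ups, 0 to 1 persistent, 0 to 0 reversed, 0 to 6 late, 61 to 1024 resolved, 436 to 1886 undetermined, 16 to 26 lists with a member called at 3 days and 0 to 8 different between ages. The block pairs shams and MI libraries that share a number in their names. Deviations of same-numbered libraries had an r of -0.09 for number 2 and -0.36 for number 3, and those of unlike numbers ran from -0.40 to 0.39. With so few shared numbers and 3 libraries a group, these values cannot show whether the numbers pair the samples. Of 4439 values of 89 named genes recomputed under the alternatives, 3768 kept their direction and side of the threshold, 522 lost the call, 149 gained one and 0 changed direction. Of 1118 list medians 134 moved by more than the spread between replicates. The causes of these changes were not tested. With 3 libraries a group at 21 days and a pooled biological coefficient of variation of 0.567, against 0.331 at 3 days, late effects could be called less readily than acute ones in the shared fits. This gap came with the day-7 groups, since the day-1 libraries alone had 0.389 at 3 days and 0.403 at 21 days. At 3 days the coefficient within the groups was 0.394 in 1d-MI + 3, 0.4285 in 1d-SHAM + 3, 0.268 in 7d-MI + 3 and 0.1955 in 7d-SHAM + 3. At 21 days it was 0.435 in 1d-MI + 21, 0.523 in 1d-SHAM + 21, 0.412 in 7d-MI + 21 and 0.788 in 7d-SHAM + 21. Genes with few counts in 1 group have fold changes that depend on the prior count.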

Other observations

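Marker genes of cells that the main account did not describe also separated some groups. Mesothelial and epicardial markers, of the outer lining of the heart, summed to 46.5 to 62.6 CPM in the shams and 65.0 to 104 CPM after MI at 3 days, without overlap, and to 23.1 to 36.5 CPM in the shams and 23.8 to 34.7 CPM after MI at 21 days, with overlap. Atrial cardiomyocyte markers, led by Nppa, summed to 50.5 to 329.9 CPM in the shams and 2266 to 4195 CPM after MI at 3 days and to 208 to 1028 CPM in the shams and 416 to 1404 CPM after MI at 21 days. Brown adipocyte markers, which include genes of heat production that muscle also uses, summed to 308 to 430.5 CPM in the shams and 224 to 305 CPM after MI at 3 days and 626 to 816 CPM in the shams and 765 to 909.7 CPM after MI at 21 days. Smooth muscle and pericyte markers summed to 1056 to 1257 CPM in the shams and 636 to 946 CPM after MI at 3 days, the opposite order to that at 21 days. A sum follows its most abundant members, and 6 of these 10 markers had a positive effect at 3 days (median 0.08). Markers of Schwann cells and neurons summed to 13.6 to 17.5 CPM in the shams and 21.0 to 23.2 CPM after MI at 21 days. Of these markers 6 had a positive and 5 a negative effect at 21 days, and their median effect at 3 days was 1.73.

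Erythroid markers overlapped at both follow-ups, with 285 to 568 CPM in the shams and 349.7 to 661 CPM after MI at 3 days and 627 to 1757 CPM in the shams and 778 to 1101 CPM after MI at 21 days. White adipocyte markers overlapped as well, with 552 to 692 CPM in the shams and 402 to 674 CPM after MI and 502 to 858 CPM in the shams and 507 to 727 CPM after MI. Skeletal muscle markers summed to 602 to 1455 CPM in the shams and 455 to 809 CPM after MI at 3 days, where the groups overlapped. Of the 13 tested, 11 had a positive effect then (median 1.57). Lymphocyte, thymus, valve and liver markers were low in all groups, with the highest sums at 11.7, 10.6, 32.6 and 37.8 CPM. Their median log2 effects at 3 days were 0.90, 0.09, 1.55 and 2.36, with no member called. High acute medians were thus not limited to the immune pathway lists. Lung epithelial markers summed to 59.5 to 63.3 CPM in the shams and 40.8 to 58.6 CPM after MI at 3 days and to 39.7 to 49.8 CPM in the shams and 63.1 to 76.0 CPM after MI at 21 days. Of the 5 tested, 4 had a positive effect at 3 days and 3 a negative one at 21 days, against the order of the sums. The part of cell composition in these sums was not tested.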
